A study of Mus musculus with 8 samples.

Results

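The G protein-coupled receptor genes Gpr17, Gpr37, Lpar1, S1pr5, Adgrg1, Adgrg6, Adgrb3, Chrm1 and Chrm3, 9 of the 21951 protein-coding genes annotated on chromosomes of the mouse genome, were examined for acetylation of histone H3 at lysine 27 (H3K27ac) in Oli-neu cells. They were taken by name, and every H3K27ac peak that overlapped the gene body or the 20 kb on either side of it was collected, which gave 23 peaks of 28924 in proliferating cells and 28 peaks of 27965 in differentiating cells. Oli-neu is a mouse line of embryonic oligodendrocyte precursors, given the C57BL/6 strain in the sample records and immortalised with the neu oncogene, so it stands for the lineage as 1 transformed line. Proliferating cells were kept in DMEM with N2 supplement, T3 at 340 ng/ml, L-thyroxine at 400 ng/ml, bFGF at 10 ng/ml and Pdgf-BB at 1 ng/ml. Differentiating cells were held without growth factors and with the erb inhibitor PD174265 at 1 μM, for 1 day by the sample records and for 2 days by the methods for this line. Chromatin was precipitated with 1 antibody against H3K27ac (Millipore) in both states, with 1 library per state, so there was no replicate error and no test between states. A peak in 1 list and not in the other is a difference between those 2 libraries.

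Receptors of this class cross the membrane, bind a ligand outside and switch a heterotrimeric G protein inside, which then acts on effectors such as adenylyl cyclase or phospholipase C. In the oligodendrocyte lineage several of them time the passage from dividing precursor to myelinating cell: Gpr17 marks committed precursors and slows their maturation, Adgrg1 (GPR56) keeps precursors dividing, and muscarinic receptors oppose differentiation. H3K27ac is laid down at active promoters and enhancers, so a peak over a gene's start site is a mark of chromatin state and not a measure of its RNA or protein.

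The cell type label was checked against promoter peaks of marker genes, the promoter region being 3000 bp upstream to 100 bp downstream of the gene's start (TSS). Sox10, Olig1, Olig2 and Ptprz1, of 14 oligodendrocyte lineage markers, carried a promoter peak in both lists and Myrf carried one in differentiating cells. These 4 and 5 of 14 genes (28.6% and 35.7%) were near the shares of all protein-coding genes, 23.7% and 27.7%, so the counts alone do not set the lineage apart. Pdgfra, Cspg4, Nkx2-2, Erbb3 and the myelin genes Mbp, Mag, Mog and Cnp carried none in either list. Of 4 markers each, astrocytes had 1 (Slc1a3, proliferating), neurons 1 (Syt1, differentiating) and microglia 0, of which the counts of 1 are also near those shares. The number of reads behind each peak is unknown, since each peak is listed with its fold enrichment over the local background, its −log10 p and its −log10 q only, and comparisons between lists were therefore made on presence and on rank within each list (percentile, 100 being the highest).

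Gpr17 was the receptor with H3K27ac at the start of its gene record in both states. It was 1 of 9 receptors (11.1%, 95% exact binomial interval 0.281 to 48.2) with a promoter peak in proliferating cells, against 23.7% of all protein-coding genes, and 1 of 2 (22.2%, interval 2.81 to 60.01), with Adgrb3, in differentiating cells, against 27.7%. In either state 2 of 9 receptors had one, against 33.8% of genes. At these numbers the intervals of the receptors include the shares of all genes. When the gene body and 20 kb on each side were taken, 7 of 9 receptors held a peak in proliferating cells and 5 of 9 in differentiating cells, against 62.7% and 62.7% of protein-coding genes, and 7 of 9 in either, against 72.4%. These shares are not matched for window length. The receptor windows ranged from the 21.2 percentile of length among protein-coding genes (S1pr5) to the 99.5 percentile (Adgrb3).

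**Figure D1:**
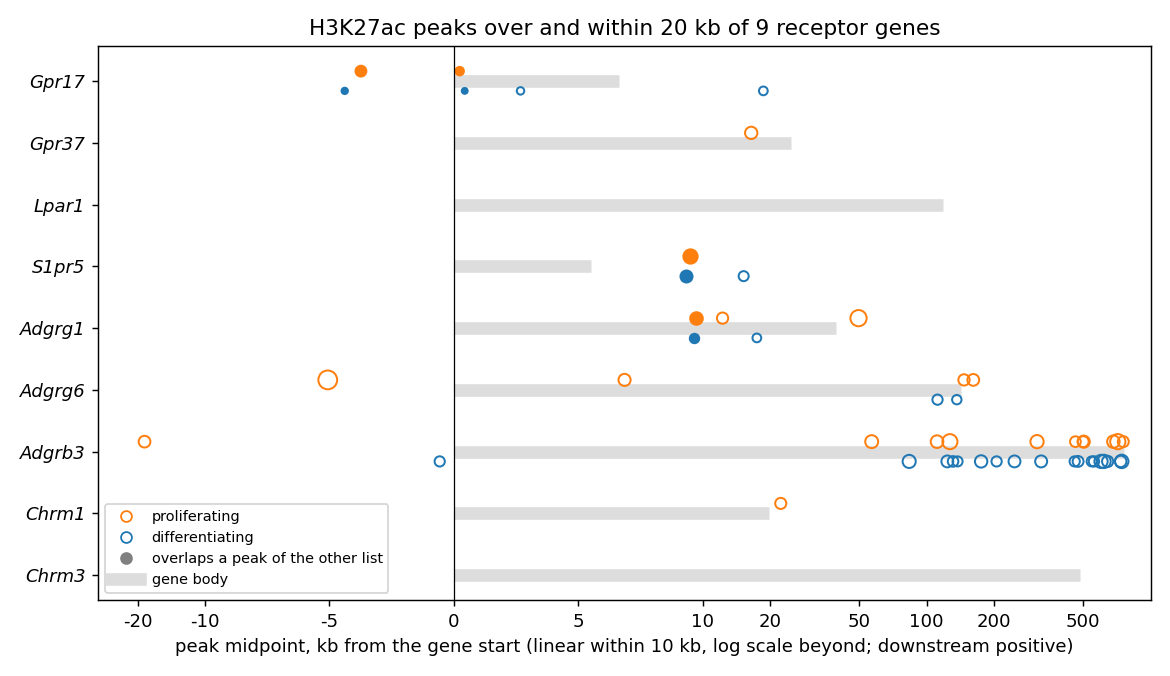
Position of each H3K27ac peak along the 9 receptor genes in proliferating (orange, upper row of each gene) and differentiating (blue, lower row) Oli-neu cells, as the distance in kb of the peak midpoint from the gene start, with the gene body in grey; the area of a circle grows with fold enrichment and filled circles overlap a peak of the other list. Filled circles lie at Gpr17, S1pr5 and Adgrg1, and Lpar1 and Chrm3 hold no peak.

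Gpr17 (ENSMUSG00000052229.5, chr18:31942997-31949636, minus strand of mm10) encodes an orphan receptor related to the nucleotide and cysteinyl leukotriene receptors. Its single annotated transcript starts at 31949636, and the whole gene lies inside the span of Lims2, a LIM-domain adaptor gene on the opposite strand. In proliferating cells a peak of 323 bp (31949239-31949561) began 75 bp inside the gene, at 2.57-fold enrichment and −log10 q of 2.18. In differentiating cells a peak of 931 bp (31948732-31949662) ran over the start site itself, at 2.09-fold and −log10 q of 2.08, and contained the proliferating peak whole. The start site was therefore bordered by H3K27ac in one list and covered in the other.

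A second pair of overlapping peaks lay upstream of Gpr17. The proliferating one (31953108-31953629, 522 bp, 3.00-fold, −log10 q of 2.95) ended 3472 bp from the start site, and the differentiating one (31953192-31954847, 1656 bp, 2.17-fold, −log10 q of 1.52) 3556 bp from it. Both also fell in promoter regions of Lims2 transcripts, and the differentiating peak covered the starts of Lims2-202, Lims2-206 and Lims2-209, so these 2 peaks cannot be assigned to Gpr17 alone. The differentiating list held another 2 peaks: 31946789-31947119 (331 bp, 2.38-fold, −log10 q of 3.20) in the coding exon of Gpr17, and 31930001-31931923 (1923 bp, 2.61-fold, −log10 q of 1.59), 17713 bp beyond the start on the downstream side and over the starts of Lims2-201 and Lims2-207. With 2 and 4 peaks in a window of 46.6 kb, Gpr17 had 42.9 peaks per Mb in proliferating and 85.8 in differentiating cells, whereas chromosome 18 as a whole had 6.41 and 6.07. These counts include the peaks in Lims2 promoter regions given above. A whole chromosome is also not matched to a window around a gene, so the densities do not describe Gpr17 alone. The share of the window under peaks was 1.81% and 10.4%.

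The fold and q values of the Gpr17 peaks ranked differently. By fold enrichment all 6 lay low, from the 2.62 to the 16.4 percentile in proliferating cells and from the 0.252 to the 5.03 percentile in differentiating cells. By −log10 q the 2 proliferating peaks stood at the 61.9 and 81.7 percentiles and the differentiating peak in the coding exon at 83.2, with that over the start site at 58.8. The other 2 differentiating peaks, in promoter regions of Lims2, were below the median at 31.9 and 26.7. Peaks under the 20 percentile of fold and above the median of −log10 q made up 2.41% of the proliferating and 2.87% of the differentiating list, and of the receptor peaks 2 of 23 and 2 of 28 were of this kind, all 4 at Gpr17. Among peaks outside the window but within 200 kb of it, 6 in proliferating and 9 in differentiating cells, the median fold was 4.36 and 3.50, and 1 and 0 of them lay under the 20 percentile. The promoter peaks of the oligodendrocyte lineage markers, set beside them after their values were seen, went both ways. Sox10 was at the 1.85 and 0.903 percentiles of fold and the 95.1 and 92.5 percentiles of −log10 q, and Olig2 at 0.175 and 1.71 against 73.6 and 93.6. Olig1 stood near the middle by fold, at 40.2 and 45.5, and Ptprz1 high, at 94.9 and 77.4, with −log10 q percentiles of 97.7 and 97.2 and of 97.8 and 91.3. The differentiating peak of Myrf was at 41.2 by fold and 37.7 by −log10 q. The pair of ranks seen at 4 of the 6 Gpr17 peaks was thus shared by 2 of these 5 genes.

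**Figure D2:**
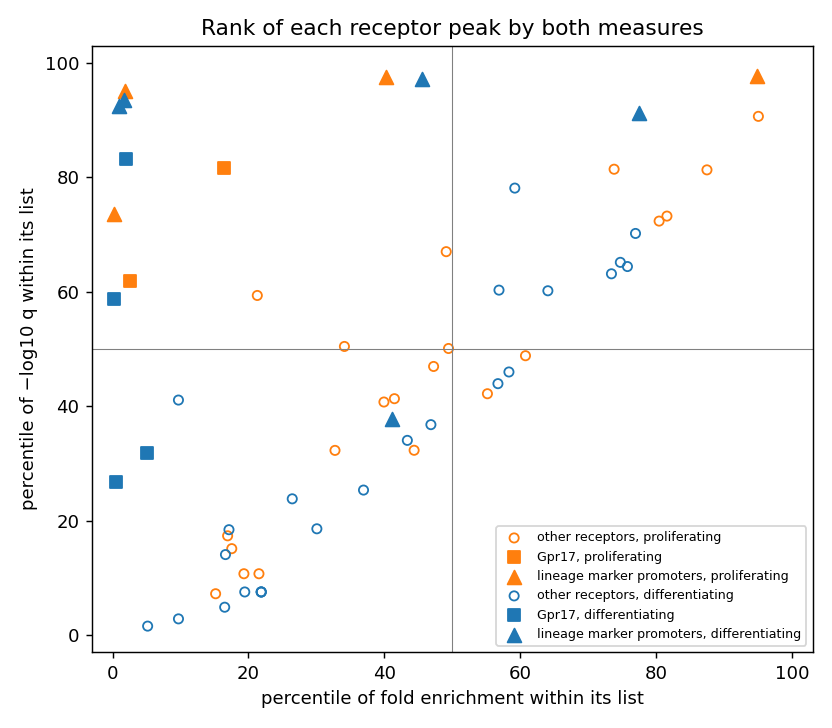
Percentile of fold enrichment (x axis) against percentile of −log10 q (y axis), each within its own list, for every receptor peak of proliferating (orange) and differentiating (blue) cells; squares are Gpr17 peaks, open circles those of the other receptors and triangles the promoter peaks of the oligodendrocyte lineage markers (Sox10, Olig1, Olig2, Ptprz1 and, in differentiating cells, Myrf), and grey lines mark the median of a list. The squares lie at or below the 16.4 percentile of fold and between the 26.7 and 83.2 percentiles of −log10 q, while most open circles lie along the diagonal and the triangles spread from the 0.175 to the 94.9 percentile of fold.

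Gpr37 (ENSMUSG00000039904.9, chr6:25665878-25690729, minus strand), an orphan receptor proposed to bind prosaposin and known to hold back oligodendrocyte differentiation, had 1 peak in proliferating cells and 0 in differentiating cells. The peak (25673769-25674730, 962 bp, 3.28-fold, −log10 q of 1.69) was intronic, 15062 bp from the start of Gpr37-202 and 15999 bp from that of Gpr37-201, and stood at the 44.4 percentile of fold. In differentiating cells the nearest peak was 95952 bp from the start of the gene, and 20.7% of protein-coding genes were farther from a peak. The gene's window would hold 0.784 and 0.747 peaks at the density of chromosome 6, and a count of 0 allows up to 3.

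Lpar1 (ENSMUSG00000038668.14, chr4:58435255-58553898, minus strand), the lysophosphatidic acid receptor found in myelinating oligodendrocytes, held no peak in a window of 158.6 kb in either list. The nearest peak to its outermost start was 84849 bp upstream in proliferating cells and 44538 bp upstream in differentiating cells, and none of its 8 annotated start sites was closer. The window would have held 1.42 and 1.30 peaks at the chromosome's density, and a count of 0 allows up to 3.

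S1pr5 (ENSMUSG00000045087.8, chr9:21242912-21248443, minus strand), the sphingosine 1-phosphate receptor of the oligodendrocyte lineage, had no peak on its own gene body. Its shared peak lay downstream, in the neighbouring Keap1 gene, whose product targets the antioxidant factor Nrf2 for degradation. In proliferating cells the peak was 854 bp wide (21238515-21239368, 3.64-fold, −log10 q of 2.93, 73.8 percentile of fold) and in differentiating cells 1557 bp (21238351-21239907, 3.22-fold, −log10 q of 2.85, 59.2 percentile). Both covered the starts of 5 Keap1 transcripts and were 9075 and 8536 bp from the start of S1pr5. A second differentiating peak (21232793-21233593, 801 bp, 2.85-fold, −log10 q of 1.34) also lay within Keap1, 14850 bp away. The peaks listed for S1pr5 thus lay at the promoter and body of another gene.

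Adgrg1 (ENSMUSG00000031785.16, chr8:94974751-95014217, plus strand), an adhesion receptor whose extracellular part binds matrix proteins and whose loss depletes precursors early, has 16 annotated start sites. Neither list had a peak at the outermost start, 94974751, or at the starts of Adgrg1-211, Adgrg1-202 and Adgrg1-212 near 94977109. Both lists had a peak over an internal start. The proliferating peak (94984344-94984606, 263 bp, 3.32-fold, −log10 q of 2.32) and the differentiating peak (94983916-94984883, 968 bp, 2.74-fold, −log10 q of 1.73) covered the starts of Adgrg1-201 at 94984371 and Adgrg1-206 at 94984470, and both fell in the promoter region of Adgrg1-213. By fold they stood at the 49.1 percentile of their list in proliferating cells and at 9.70 in differentiating cells. Counting every annotated start site raised the receptors with a promoter peak from 1 to 2 in proliferating and from 2 to 3 in differentiating cells, the addition being Adgrg1 in both.

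The promoter of this internal start is shown because it was the one receptor promoter of the RefSeq table that overlapped a peak in either list. That table held no promoter for Gpr17 or Chrm1, so the Gpr17 start could not be among them. The 300 bases (chr8:94984149-94984448, GRCm38.p6, plus strand, 250 before and 50 after the RefSeq start at 94984399) are printed with the 105 bases under the proliferating peak in capitals.
Adgrg1 internal promoter: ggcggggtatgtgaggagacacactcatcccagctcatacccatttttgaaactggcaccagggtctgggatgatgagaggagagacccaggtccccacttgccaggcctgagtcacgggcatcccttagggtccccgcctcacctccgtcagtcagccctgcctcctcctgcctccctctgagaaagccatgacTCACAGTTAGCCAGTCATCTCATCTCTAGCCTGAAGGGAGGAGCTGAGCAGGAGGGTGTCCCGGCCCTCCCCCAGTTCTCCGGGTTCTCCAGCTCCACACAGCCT
The stretch has 60.7% G and C and few CpG pairs, with an observed to expected CpG ratio of 0.222, which is the 31.9 percentile of 32851 RefSeq promoters. None of the 5 motifs searched on both strands, ACAATG and ACAAAG (Sox factors), CAGCTG (an E-box of basic helix-loop-helix factors), GGGCGG (Sp factors) and TGACGTCA (Creb), was found in these letters. They occurred in 12.6%, 18.7%, 16.3%, 35.7% and 1.79% of all RefSeq promoters of this length. Promoters with few CpG pairs seldom carried a peak here: in the lowest tertile by CpG ratio (up to 0.232), to which this promoter belongs, 2.25% overlapped a proliferating and 2.31% a differentiating peak, against 8.43% and 9.94% in the middle tertile and 37.1% and 45.3% in the highest.

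Adgrg1 held further peaks that the lists did not share. In proliferating cells these were 94986679-94987378 (700 bp, 3.08-fold, −log10 q of 2.12), intronic and 1111 bp inside the start of Adgrg1-213, and 95024259-95024613 (355 bp, 3.99-fold, −log10 q of 2.93, 87.5 percentile of fold), which lay beyond the gene and within its paralogue Adgrg3. In differentiating cells it was 94992079-94992357 (279 bp, 2.62-fold, −log10 q of 1.17), in the promoter region of 5 transcripts, of which Adgrg1-209 was nearest at 1917 bp. This last value was at the 1.57 percentile of −log10 q, the lowest of all receptor peaks. With 3 and 2 peaks the density was 37.8 and 25.2 per Mb, against 4.87 and 4.85 on chromosome 8. The proliferating count includes the peak within Adgrg3, and a whole chromosome is not matched to a window around a gene.

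**Figure D3:**
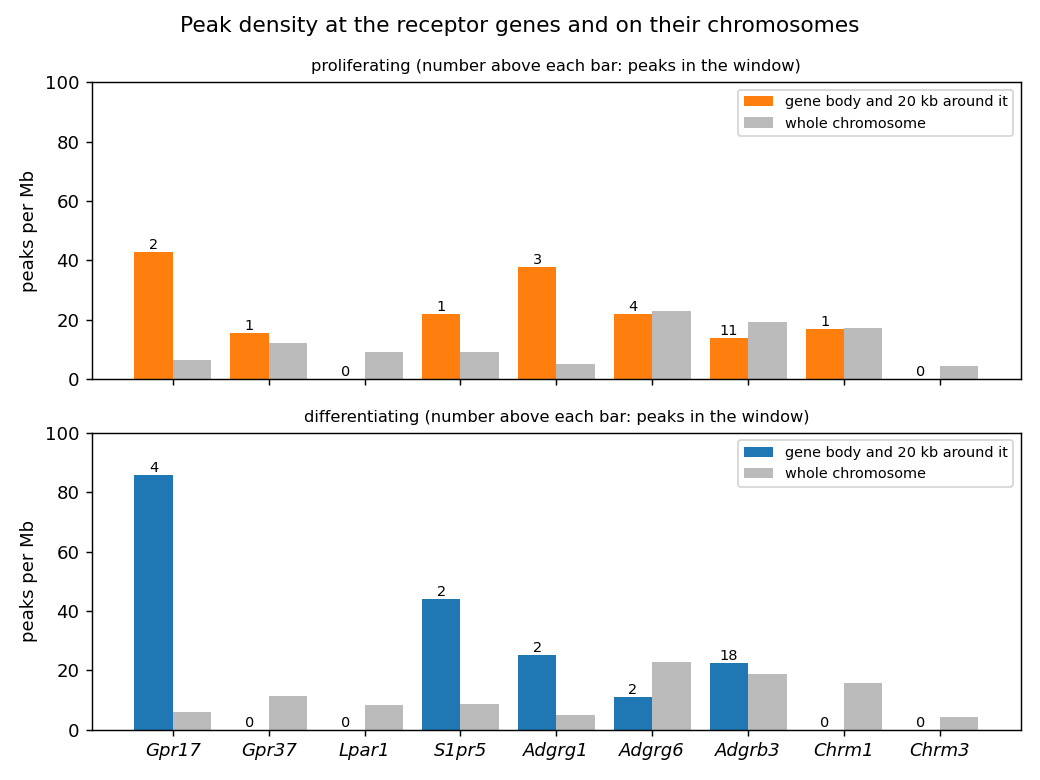
Peaks per Mb over each receptor gene and 20 kb around it (coloured bars) and over its whole chromosome (grey bars), in proliferating (upper) and differentiating (lower) cells; the number above a bar is the count of peaks behind it. Gpr17 reaches 42.9 and 85.8 against 6.41 and 6.07 on its chromosome, and Lpar1 and Chrm3 are at 0 in both. The counts include peaks at promoters of neighbouring genes, Lims2 at Gpr17 and Keap1 at S1pr5. At Adgrg1 they also include a proliferating peak within Adgrg3.

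Adgrg6 (ENSMUSG00000039116.6, chr10:14402583-14545659, minus strand), better known as GPR126 and required for Schwann cells to myelinate, had 4 peaks in proliferating and 2 in differentiating cells, with none shared. Its upstream peak in proliferating cells (14550593-14550855, 263 bp) had the highest fold of all receptor peaks, 4.47 (95.04 percentile), with −log10 q of 3.81 (90.7 percentile). It lay 4934 bp before the start of Adgrg6-203, within the antisense transcript Gm46212, and had no counterpart in the differentiating list, whose nearest peak was 110883 bp from the gene's start. The other 3 proliferating peaks, at 3.09- to 3.23-fold, comprised 1 intronic peak 6068 bp inside the start of Adgrg6-202 and 2 beyond the 3′ end. The 2 differentiating peaks were 14408754-14409598 (845 bp, 2.74-fold, −log10 q of 1.22), intronic, and 14432688-14434776 (2089 bp, 2.89-fold, −log10 q of 1.28), which included a coding exon. Chromosome 10 was densely covered, with 23.0 and 22.9 peaks per Mb, at which density the window would hold 4.21 and 4.20 peaks. The Adgrg6 promoter itself, rich in CpG pairs (ratio 1.08, 97.3 percentile), carried no peak in either list.

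The peak of highest fold is shown to give the sequence behind it, on the strand of the gene (chr10:14550593-14550855, GRCm38.p6, minus strand), with the letters CATTGT, the reverse complement of the Sox motif ACAATG, in capitals.
Adgrg6 proliferating peak: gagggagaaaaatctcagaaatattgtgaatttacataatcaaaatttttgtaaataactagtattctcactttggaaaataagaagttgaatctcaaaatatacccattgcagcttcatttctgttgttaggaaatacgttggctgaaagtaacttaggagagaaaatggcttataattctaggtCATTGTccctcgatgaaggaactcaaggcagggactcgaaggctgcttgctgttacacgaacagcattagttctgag
These 263 bases have 36.1% G and C. The motif begins at base 187 of the printed strand and the other 4 motifs were not found. ACAATG on either strand occurred in 13.2% of windows of this length at the centres of the proliferating peaks, so the match is a description of these letters and not a binding site.

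Adgrb3 (ENSMUSG00000033569.17, chr1:25067476-25829707, minus strand), the adhesion receptor BAI3 that binds C1q-like proteins, held 29 of the 51 receptor peaks in the longest window, 802.2 kb, wider than those of 99.5% of protein-coding genes. It had 11 peaks in proliferating and 18 in differentiating cells, and none of either overlapped a peak of the other list. Of all proliferating and all differentiating peaks, 29.2% and 30.1% had a counterpart. With 0 of 11 and 0 of 18 shared, the exact upper limits were 28.5% and 18.5%. These limits take peaks of 1 gene in 1 library as independent, which they are not, so the difference was not tested. The chromosome's densities would give 15.4 and 15.0 peaks, so the numbers were near those of the chromosome at large. In proliferating cells 10 of 11 peaks were intronic, the highest at 3.81-fold (25115115-25115377, 263 bp, −log10 q of 2.53, 81.6 percentile of fold). In differentiating cells the highest was also intronic, at 3.49-fold (25085668-25086249, 582 bp, −log10 q of 2.46, 77.0 percentile), and 3 others of the list touched coding exons, 1 of them (25228247-25228567, 321 bp, 3.45-fold) 259 bp inside the start of Adgrb3-203.

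The promoter of Adgrb3 carried a peak in the differentiating list only. That peak (25830006-25830541, 536 bp, 2.89-fold, −log10 q of 1.28) ended 299 bp upstream of the start at 25829707, in the promoter regions of Adgrb3-205 and Adgrb3-207 and of Gm9884 on the opposite strand. It was weak, at the 19.5 percentile of fold and the 7.54 percentile of −log10 q, and its listed q did not reach 0.05, the cutoff stated in the methods, so with that limit on both lists Gpr17 alone remained with a promoter peak. In proliferating cells the nearest peak was 18482 bp upstream. Its central 263 bases (chr1:25830142-25830404, GRCm38.p6, minus strand) are shown because this peak was the receptor peak richest in G and C (75.2% over its whole width, with the proliferating S1pr5 peak close behind at 74.6%), with CCGCCC, the reverse complement of the Sp motif GGGCGG, in capitals.
Adgrb3 differentiating peak: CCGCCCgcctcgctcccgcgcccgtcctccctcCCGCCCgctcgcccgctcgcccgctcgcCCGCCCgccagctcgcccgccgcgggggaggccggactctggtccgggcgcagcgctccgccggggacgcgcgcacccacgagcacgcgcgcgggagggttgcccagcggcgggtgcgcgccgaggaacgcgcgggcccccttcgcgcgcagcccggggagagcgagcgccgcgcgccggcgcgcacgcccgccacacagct
They hold 84.4% G and C, with a CpG ratio of 1.20, and the motif 3 times, from bases 1, 34 and 62. GGGCGG on either strand occurred in 16.1% of equally long centres of the differentiating peaks. The other 4 motifs were not found.

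The muscarinic acetylcholine receptors Chrm1 and Chrm3, which signal through Gq and phospholipase C in precursors, held 1 or 0 H3K27ac peaks in each list. Chrm1 (ENSMUSG00000032773.9, chr19:8663789-8683587, plus strand) had 1 proliferating peak beyond its 3′ end (8685840-8686403, 564 bp, 3.05-fold, −log10 q of 1.42, 19.3 percentile of fold), of which 70.2% was repeat sequence, and 0 in differentiating cells. Its window would hold 1.02 and 0.946 peaks at the chromosome's density, near the numbers found. The nearest differentiating peak was 22740 bp upstream of the Chrm1 start, just outside the window. Chrm3 (ENSMUSG00000046159.16, chr13:9875486-10360847, minus strand) held 0 peaks in 525.4 kb in both lists, where the chromosome's density gives 2.19 and 2.24. A count of 0 allows up to 3. The nearest peak lay 474.8 kb from the start of its gene record in proliferating and 526.2 kb in differentiating cells, in stretches of 1001 and 2361 kb without a peak. The internal start of Chrm3-201 was closer, 44277 and 44345 bp from a peak beyond the 3′ end and outside the window. That peak had 5.57-fold and −log10 q of 6.58 in proliferating cells, and 3.41-fold and 2.19 in differentiating cells. For comparison, the median protein-coding gene was 17.4 and 15.7 kb from a peak, and 4.79% and 4.66% of genes were farther from one than Chrm3.

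Across the 9 genes the peaks were ordinary or low within their lists. Their median fold was 3.25 in proliferating cells, against 3.33 for all peaks, and 2.90 in differentiating cells, against 3.13, with 7 of 23 and 9 of 28 above the median of the list. The range was 2.57 to 4.47 in proliferating and 2.09 to 3.49 in differentiating cells. Median −log10 q was 1.91 against 1.93 and 1.61 against 1.89. Without Adgrb3 the median fold was 3.21 and 2.68, and the median −log10 q 2.15, above that of the list, and 1.56. No receptor peak reached a −log10 q of 5, which 4.35% of all proliferating and 5.73% of all differentiating peaks did. Of the 23 and 28 peaks, 5 and 3 had the shortest width of their list (263 and 279 bp), a width shared by 22.9% and 17.5% of all peaks.

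The location of the receptor peaks was set largely by Adgrb3. In proliferating cells 13 of 23 were intronic, 2 touched a noncoding part of an exon, 0 a coding exon, 3 were upstream and 5 downstream of the gene. In differentiating cells 16 of 28 were intronic, 5 touched a coding exon, 2 a noncoding part, 2 were upstream and 3 downstream. Without Adgrb3, 3 of 12 and 2 of 10 were intronic, fewer than the 5 and 3 downstream of a gene. Their median G and C content was 42.4% and 41.1%, against 47.1% and 47.5% for all peaks, but without Adgrb3 it was 47.2% and 52.5%, so the lower value turned on that gene. Peaks above 50% G and C numbered 5 and 9, and they belonged to Gpr17, S1pr5 and Adgrg1 in both states and to the Adgrb3 promoter in differentiating cells. Neither the locations nor the peaks above 50% were counted over all peaks. These counts therefore have no share beside them and do not set the receptor peaks apart. At the densities of their chromosomes the windows would hold 26.1 and 25.5 peaks in all, close to the 23 and 28 found.

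Sharing between states was concentrated at 3 loci. A counterpart, meaning an overlap of at least 1 bp, was found for 4 of 23 proliferating peaks (17.4%, interval 4.95 to 38.8) and for 4 of 28 differentiating peaks (14.3%, interval 4.03 to 32.7), against 29.2% and 30.1% of all peaks. These were 2 at Gpr17, 1 at S1pr5 and 1 at Adgrg1. The S1pr5 pair lay over starts of Keap1 and the upstream Gpr17 pair in promoter regions of Lims2. Those pairs are therefore not sharing at the receptor genes alone. Without Adgrb3 the shares were 4 of 12 (33.3%, interval 9.92 to 65.1) and 4 of 10 (40.0%, interval 12.2 to 73.8). All these intervals take peaks as independent, which peaks of 1 gene in 1 library are not, so no difference was tested. Whether the receptors fell below or above the share of all peaks thus turned on 1 gene.

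Genes that act before and after these receptors in the pathway were counted by the same promoter region. Of 14 G protein subunit genes, 6 had one in proliferating and 8 in differentiating cells, with Gnaz, Gnaq, Gna11, Gna13, Gnb1 and Gnb2 in both and Gnai1 and Gnb4 in differentiating cells. The highest promoter fold of the list was 4.29 at Gnb2, a beta subunit, in proliferating cells and 3.99 at Gnaq, the subunit that activates phospholipase C, in differentiating cells. Of 17 effector genes 7 and 5 had one, 3 of them in both states, and Plcb1, a phospholipase C, was highest in both with 4.60- and 4.80-fold. Of 23 regulators (arrestins, receptor kinases and Rgs proteins) 6 and 5 had one, the highest being the receptor kinase Grk6 at 3.83-fold and Rgs12, which speeds the switching off of G proteins, at 4.13-fold.

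Of 19 genes for ligands or for enzymes that make, move or break them, 4 had a promoter peak in proliferating cells and 8 in differentiating cells. Plpp3, Sphk2, Sgpl1 and Psap had one in both, and Sphk1, Spns2, Prnp and C1ql1 in differentiating cells. The highest were Sphk2, a kinase that makes sphingosine 1-phosphate, at 4.35-fold in proliferating cells and Psap, which encodes prosaposin, at 4.49-fold in differentiating cells. Sphk1 and Spns2, the other kinase and the exporter of the same lipid, stood at 3.00- and 3.14-fold. C1ql1, which encodes a C1q-like protein, was at 2.70-fold in differentiating cells, low within that list by fold and by −log10 q. The related genes C1ql2, C1ql3 and C1ql4 carried no promoter peak in either list. A link between the C1ql1 peak and the weak Adgrb3 promoter peak was not tested.

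Other receptor genes were counted as well. Of 20 paralogues of the 9, the promoter peaks were those of Lpar6 (4.15-fold), S1pr4 (4.57-fold) and Gpr37l1 (4.09-fold, −log10 q of 7.01) in proliferating cells and of Chrm4 (3.34-fold) in differentiating cells. Of 23 other receptors reported in glia, 6 had one in proliferating cells (P2ry1, P2ry2, Ackr3, Cnr1, Gabbr1 and Grm7) and 1, P2ry1, in differentiating cells. The highest were Cnr1, a cannabinoid receptor, at 4.72-fold in proliferating cells and P2ry1, a purine receptor, at 3.39-fold in differentiating cells. The counts of these gene lists stand beside 23.7% (proliferating) and 27.7% (differentiating) of all protein-coding genes, and 33.8% in either state. Counts of genes marked in both states have no such share beside them, and none of the counts was tested.

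**Figure D4:**
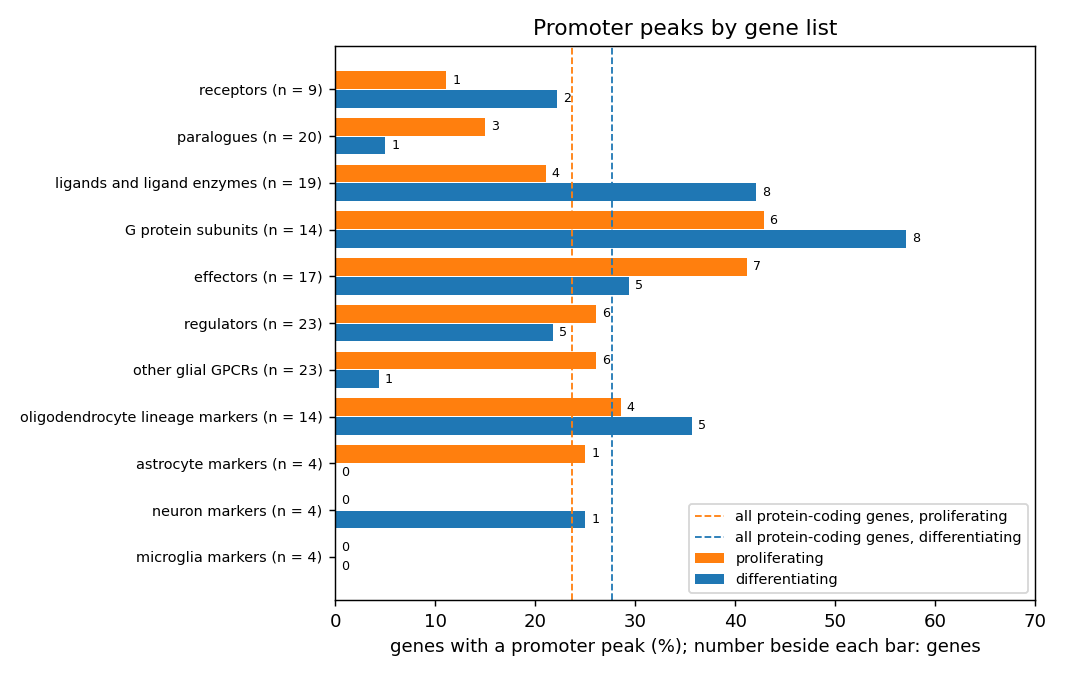
Share of the genes of each list, in percent, whose promoter region overlapped an H3K27ac peak, for proliferating (orange) and differentiating (blue) cells; the number beside a bar is the count of genes and dashed lines give the share of all protein-coding genes, 23.7% and 27.7%. The bars of the 9 receptors and of their paralogues end below the lines in both states, and those of the G protein subunits above them.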

How the data were processed

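H3K27ac ChIP-seq peaks of 1 library of proliferating and 1 of differentiating Oli-neu cells were used; 6 ATAC-seq samples (siCtrl and siPadi2, 3 each) were not analysed here. Per the labels and the methods, the authors aligned reads to GRCm38/mm10 with Bowtie2 2.1.0, kept uniquely mapped reads, removed duplicates with SAMtools, called broad peaks with MACS2 2.0.10 and removed blacklisted regions with BEDTools. Whether an input library was used is not given in the sources used here. The authors deposited for each peak its position and 3 values, read from their size and order as MACS fold enrichment, −log10 p and −log10 q averaged over the broad region. The methods state a q cutoff of 0.05, but the deposited q values reach 9.95%: 3.90% of peaks in proliferating and 11.5% in differentiating cells, among them 0 and 7 receptor peaks, are listed above that cutoff. All deposited peaks were used, with the cutoff as an alternative. The labels give 1 day of differentiation and the methods 2 days, and which applies to this library was not settled.

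Start coordinates were made 1-based. Genes, transcripts and start sites came from GENCODE M21 and promoter sequences from RefSeq (GRCm38.p6), which held 10 promoters for 7 of the 9 receptors. Peaks were assigned to a gene body with 20 kb on each side and to a promoter region 3000 bp upstream to 100 bp downstream of the start of the gene record. Percentiles were taken within each list. Intervals are exact binomial 95% intervals and cover counting error only, as does the limit of 3 counts for a count of 0. No test was run, since each state had 1 library. The receptors, the gene lists and the motifs were chosen with earlier results of these data known. All receptors were named; for each, its highest peak in each list and its promoter peaks were given in full, and for each gene list the genes of highest promoter fold. The value of 1 lineage marker is not reported here. The overlap routines were tested on simulated peaks. Python 3.11.15, numpy 2.4.6, pandas 2.3.3, scipy 1.17.1 and matplotlib 3.10.9 were used.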

Additional observations from a re-analysis of the deposited data

How the results depend on the processing

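Of 72 values recomputed under 16 other settings and 1 chosen after seeing the data, 41 stayed within 1.5 times the reported count or inside its interval and 31 moved; values are given as proliferating and differentiating. When only peaks whose −log10 q reached 5 were kept, receptors with a peak, their peaks, promoter peaks and counterparts were all 0. With fold at or above the list median, 4 and 2 receptors had a peak, with 7 and 9 peaks, 0 and 0 promoter peaks and 1 and 1 counterparts. At a q limit of 0.05 the differentiating promoter peaks fell to 1. With that limit 7 and 4 receptors had a peak, with 23 and 21 peaks, so the differentiating number was no longer the larger. The gene body alone held 15 proliferating peaks and 2 and 2 with counterparts. Within 50 kb, 8 receptors had a differentiating peak, and within 100 kb 9, with 47 and 48 peaks. With 6000 bp upstream, or every transcript's start, 2 receptors had a proliferating promoter peak. The share of all protein-coding genes was not computed at these other settings, so the counts of receptors have no background beside them. A reciprocal overlap of at least 0.5 left 1 and 1 counterparts. Without Adgrb3 the peaks were 12 and 10, and 40.0% of the differentiating ones had a counterpart. The cause was not tested, beyond what each alternative's own construction gives (fewer peaks, or a longer or shorter region). The median percentile of the receptor peaks was 41.5 and 24.2 by fold, 48.8 and 33.0 by −log10 q and 44.3 and 52.3 by width.

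No paired analysis was possible because each state had 1 library and no test was run. Without read counts, depth per peak is unknown, so a missing peak is a peak that was not called and not a measured absence of H3K27ac.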
